A study of Mus musculus with 12 samples.

Results

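MHC class I presentation is described here through 10 genes, H2-K1, H2-D1, H2-T23, B2m, Tap1, Tap2, Tapbp, Psmb8, Psmb9 and Psmb10, measured in splenic B cells of mice. Every probe set, the group of short probes that gives 1 value on the array, whose annotation held 1 of these symbols was taken and reported apart. The 10 genes stand among 18193 that had a probe set of their own. They gave 31 of 45037 probe sets, of which 26 carried 1 symbol and 5 carried several. The genes were chosen by the genotype differences of H2-K1 and H2-D1, which were already known from these arrays. For the 16 probe sets that hold H2-K1 or H2-D1, the genotype difference is therefore a description with no test.

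The 4 groups of 3 arrays each were transgenic cells kept unstimulated (day 0), wild type cells kept unstimulated, transgenic cells 2 days after the addition of LPS (20 µg/ml) together with the cytokine IL-4 (10 ng/ml), and wild type cells after the same stimulation. The transgenic mice carried EFLmDREAM, a mutant form of the calcium-binding transcriptional repressor DREAM. B cells had been enriched by depleting the cells that bear CD43, to a purity that the submitters put above 98%, and the replicates are called independent by the submitters. The promoter of the transgene, the number of founder lines, the age, and the strain or MHC haplotype of either genotype are not given in the sources used here.

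In MHC class I presentation, cytosolic proteins are cut by the proteasome, and the peptides are carried into the endoplasmic reticulum by the transporter of Tap1 and Tap2. Tapasin, the product of Tapbp, holds the empty class I molecule at that transporter until a peptide is bound. The molecule then reaches the cell surface as a heavy chain with the light chain beta-2 microglobulin, where CD8 T cells and natural killer cells read it. Psmb8, Psmb9 and Psmb10 encode the catalytic subunits of the immunoproteasome, the form of the proteasome found in lymphocytes and induced by interferon. H2-K1 and H2-D1, the classical heavy chains, are among the most polymorphic genes between inbred mouse strains, and an array probe reads only the sequence it was designed for. The other 8 members vary far less. In the RefSeq gene table (GRCm38.p6), 8 of the 10 genes lie on chromosome 17 in the order Tapbp, H2-K1, Psmb9, Tap1, Psmb8, Tap2, H2-D1 and H2-T23, with B2m on chromosome 2 and Psmb10 on chromosome 8.

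The promoters of H2-K1 and H2-D1 are shown because both genes are read below through many probe sets, and that of Tap1 because it faces Psmb9 and a probe set of each was higher after stimulation. Each window is 300 bases of RefSeq sequence (GRCm38.p6), 250 before and 50 after an annotated start, and 9 of the 10 genes had at least 1. H2-K1 has 2 such starts, both inside the outer limits of the gene in the RefSeq gene table, and the window of 1 of them is shown. Capitals mark the stretch of the H2-K1 window that matches the NF-kB consensus, read from that window (GGGGATTCCCC), and the core of the cyclic AMP response element (TGACG), both searched on both strands.
H2-K1, chr17:34000298-34000597, minus strand: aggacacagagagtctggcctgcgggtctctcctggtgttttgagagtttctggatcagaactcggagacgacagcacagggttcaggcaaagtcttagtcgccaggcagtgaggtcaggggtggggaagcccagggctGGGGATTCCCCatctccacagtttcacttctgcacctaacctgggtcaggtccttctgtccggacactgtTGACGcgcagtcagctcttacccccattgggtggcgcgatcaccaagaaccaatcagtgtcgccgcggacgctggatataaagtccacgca
H2-D1, chr17:35262844-35263143, plus strand: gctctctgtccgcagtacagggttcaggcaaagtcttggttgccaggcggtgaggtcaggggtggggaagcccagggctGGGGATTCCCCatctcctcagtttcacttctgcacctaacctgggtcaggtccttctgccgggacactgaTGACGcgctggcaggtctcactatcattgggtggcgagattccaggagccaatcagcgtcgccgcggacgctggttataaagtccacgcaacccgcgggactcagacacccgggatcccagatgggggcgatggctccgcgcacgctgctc
Tap1, chr17:34187306-34187605, plus strand: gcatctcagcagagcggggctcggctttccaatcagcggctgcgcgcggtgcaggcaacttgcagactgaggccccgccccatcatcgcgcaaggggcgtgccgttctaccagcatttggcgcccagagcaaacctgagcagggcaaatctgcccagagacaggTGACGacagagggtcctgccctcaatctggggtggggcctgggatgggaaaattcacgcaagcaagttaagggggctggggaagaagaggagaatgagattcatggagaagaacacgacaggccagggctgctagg
The NF-kB stretch lay at -111 to -101 from the H2-K1 start shown, at -125 to -115 from the other H2-K1 start and at -171 to -161 from the start of H2-D1, so these distances depend on the start annotated. It was held by 10 of 32851 promoter windows, or 0.0304%, among them both H2-K1 windows, from 1 of which it was read. Aligned without gaps at that stretch, the windows of H2-K1 and H2-D1 were identical at 176 of 240 bases (73.3%). TGACG stood in 5 of the 9 members' windows and in 20.8% of all windows. The NF-kB consensus, whose overlapping matches make up that stretch, was found in the windows of H2-K1, H2-D1 and B2m and in 8.46% of all windows. The windows of Tap1 and Psmb9 share 275 bases on opposite strands. These are matches of letters in a reference sequence and say nothing of binding in these cells.

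All values are log2 probe set levels as deposited unless stated otherwise, and the number of arrays limits their precision. Array medians were 5.97 to 6.05 in unstimulated and 5.37 to 5.41 in stimulated cells, so changes with stimulation depend on the scaling. Replicates of a group correlated at 0.984 to 0.997 across probe sets. Replicate 1 of the unstimulated wild type group had a lower signal at the 5′ end of actin, with a 5′ minus 3′ difference of -2.22 against -0.67 to -0.54 in the other unstimulated arrays. Markers of B cells were above the array median for 8 of 8 genes in every group.

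H2-D1 was read by 9 probe sets of its own, and they did not agree on the genotype difference. In 3 of them the transgenic cells were 8.34-fold to 28.2-fold lower than wild type cells before stimulation, while another, 1450170_x_at, was 1.71-fold higher. Probe set 1451683_x_at read 6.91, 7.02 and 6.71 in unstimulated transgenic cells, against 11.88, 11.55 and 11.66 in unstimulated wild type cells. All 3 transgenic arrays lay far below all 3 wild type arrays, and the difference was -4.82 ± 0.12 (SE, n = 3 each). After stimulation the same probe set read 6.55, 6.64 and 6.57 in transgenic cells and 10.60, 10.79 and 10.99 in wild type cells, a difference of -4.21 ± 0.12. The gap was thus present in both states.

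Probe set 1425545_x_at gave 7.78, 8.10 and 7.70 in unstimulated transgenic cells and 12, 12.12 and 11.99 in unstimulated wild type cells. With stimulation it gave 7.39, 7.34 and 7.46 in transgenic cells and 11.74, 11.76 and 11.79 in wild type cells. The differences were -4.18 ± 0.10 and -4.37 ± 0.10, which correspond to 18.1-fold and 20.6-fold lower levels in transgenic cells. Probe set 1451784_x_at showed the same direction, with 8.63, 8.29 and 8.52 in unstimulated transgenic cells and 11.79, 11.38 and 11.45 in unstimulated wild type cells. Its differences were -3.06 ± 0.15 before and -3.08 ± 0.15 after stimulation. A smaller gap was read by 1426324_at, at 8.51, 8.58 and 8.27 in unstimulated transgenic cells and 9.61, 9.52 and 9.32 in unstimulated wild type cells, a difference of -1.03 ± 0.12.

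The opposite direction was read by 1450170_x_at. It stood at 12.72, 12.77 and 12.67 in unstimulated transgenic cells, against 11.91, 11.96 and 11.98 in unstimulated wild type cells. After stimulation the values were 12.45, 12.50 and 12.50 in transgenic cells and 11.52, 11.64 and 11.60 in wild type cells. The groups did not overlap in either state, and the differences were 0.77 ± 0.07 and 0.90 ± 0.07. Probe sets 1452544_x_at and 1425614_x_at were also higher in all transgenic than in all wild type arrays, by 0.47 and 0.32 before stimulation and by 0.58 and 0.53 after it. For 1427651_x_at the unstimulated groups overlapped, with a difference of 0.12, and the stimulated groups did not, with 0.48. Probe set 1451934_at, at 3.38 to 4.24 over the 12 arrays, overlapped between genotypes in both states.

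Counted over H2-D1, 3 probe sets were higher without overlap, 4 lower without overlap and 2 overlapped before stimulation. After it, 4 were higher, 4 lower and 1 overlapped. Over all probe sets, transgenic arrays lay above wild type arrays without overlap in 11.8% and below them in 12.5% before stimulation, and in 8.93% and 10.1% after it. These counts chose the gene and carry no weight as a test. A log2 difference under -1 was read by 6 members before and 5 after stimulation, all H2-D1 or H2-K1, and by 0.395% and 0.213% of all probe sets. By size, 1451683_x_at had the lowest difference but 4 of the 45037 probe sets before stimulation, ranking 5 from the bottom, and 1425545_x_at ranked 6.

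H2-K1 was read by 4 probe sets of its own, in the same divided way. Probe set 1451931_x_at read 7.91, 8.07 and 8.16 in unstimulated transgenic cells, against 11.78, 11.70 and 11.72 in unstimulated wild type cells. After stimulation it read 7.88, 8.14 and 8.41 in transgenic cells and 11.17, 11.39 and 11.51 in wild type cells. The differences of -3.69 ± 0.13 and -3.21 ± 0.13 correspond to 12.9-fold and 9.27-fold lower levels in transgenic cells. For 1425336_x_at the values were 10.77, 11.04 and 10.68 in unstimulated transgenic cells and 12.94, 12.92 and 12.98 in unstimulated wild type cells. Its difference was -2.12 ± 0.10 before and -1.59 ± 0.10 after stimulation, with no overlap in either state.

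The other 2 H2-K1 probe sets showed no such gap. Probe set 1427746_x_at read 11.73, 11.90 and 11.66 in unstimulated transgenic cells, against 11.72, 11.75 and 11.91 in unstimulated wild type cells. The groups overlapped, and the difference was -0.03 with a 95% interval of -0.22 to 0.16. After stimulation it was 0.19, with transgenic arrays at 11.62, 11.63 and 11.73 and wild type arrays at 11.45, 11.41 and 11.55. The stimulated groups did not overlap. Probe set 1450534_x_at overlapped between genotypes in both states, at -0.18 and -0.01.

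A further 3 probe sets carry H2-K1 or H2-D1 beside other symbols, so their values cannot be given to 1 gene. The one annotated to both H2-K1 and H2-D1, 1424948_x_at, read 11.39, 11.49 and 11.31 in unstimulated transgenic cells and 11.36, 11.38 and 11.52 in unstimulated wild type cells. Its groups overlapped with a difference of -0.02, while after stimulation they did not, with 10.96, 10.95 and 11.17 in transgenic cells and 10.67, 10.68 and 10.85 in wild type cells. The probe sets 1451593_at, shared with H2-Q5, and 1422348_at, shared with H2-Q2 and Gm38417, differed by -0.07 each before stimulation and by 0.23 and -0.09 after it.

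**Figure D1:**
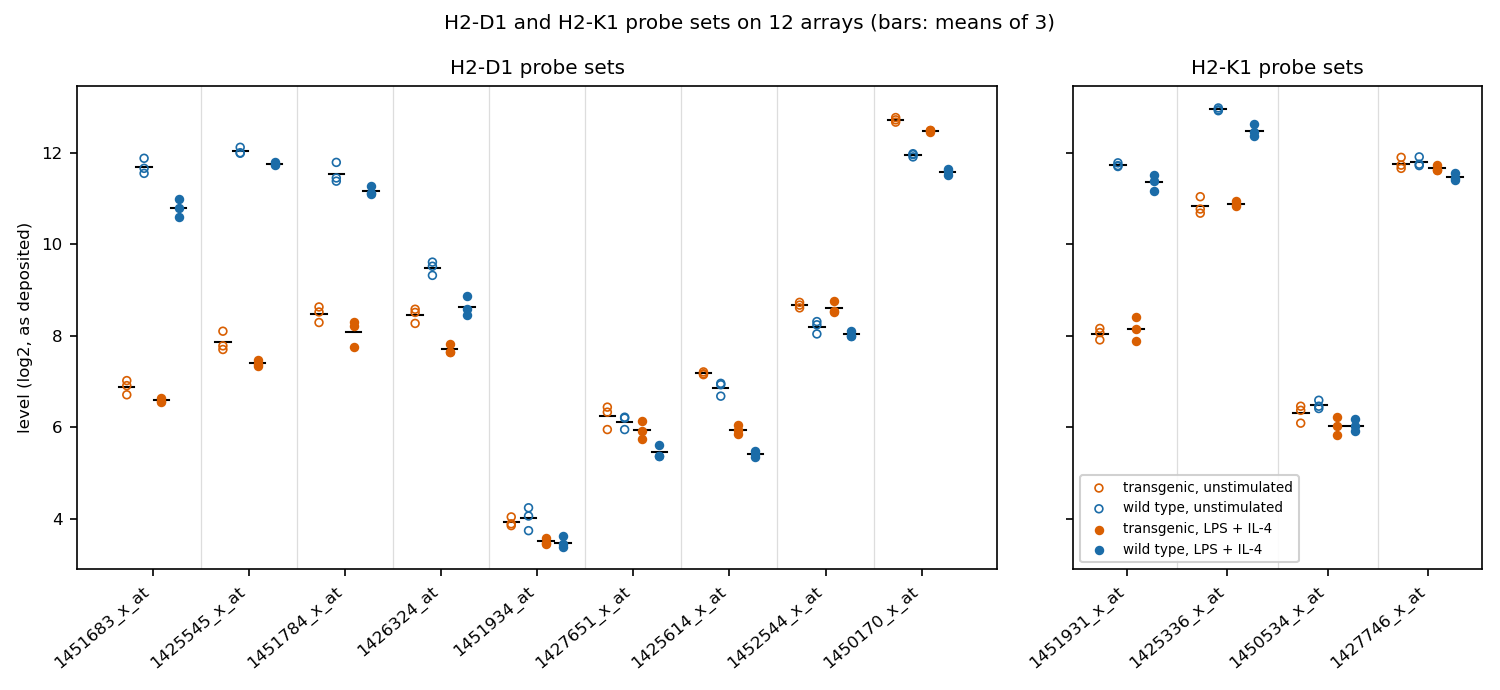
Deposited log2 levels of the 9 H2-D1 and 4 H2-K1 probe sets of 1 symbol on each of 12 arrays, with a bar at the mean of 3 arrays; open points are unstimulated and filled points stimulated cells, transgenic in orange and wild type in blue. H2-D1 1451683_x_at and 1425545_x_at and H2-K1 1451931_x_at lie far lower in transgenic cells, H2-D1 1450170_x_at lies higher, and H2-K1 1427746_x_at lies close together.

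Agreement within a gene was measured as the highest minus the lowest genotype difference over its probe sets of 1 symbol. The range was 5.59 for H2-D1 before stimulation and 5.26 after it. Of the 14 genes with 9 such probe sets, H2-D1 alone reached it, and their median was 0.83 before and 0.44 after stimulation. H2-D1 also had the widest range of all 9010 genes with at least 2 probe sets, in both states. H2-K1 had ranges of 3.66 and 3.40, against medians of 0.40 and 0.24 over the 1093 genes with 4 probe sets. Counting H2-K1 itself, 3 of the 9010 genes were as wide before stimulation and 4 after it.

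The less polymorphic members were narrower than the heavy chains. B2m had a range of 0.12 before and 0.08 after stimulation over 2 probe sets, and Psmb8 had 0.17 and 0.26. Tap1 had 0.50 and 0.18 over 4 probe sets, and Tapbp had 0.54 and 0.67 over 2. The median over all 9010 genes was 0.25 before and 0.16 after stimulation, whatever their number of probe sets. Over the 1093 genes with 4 probe sets it was 0.40 and 0.24, and 381 and 757 were at least as wide as Tap1. Tap1 was thus wider than their median before stimulation and narrower after it. Over the 4695 genes with 2 probe sets the median was 0.16 and 0.11. Of these, 370 and 59 were at least as wide as Tapbp, 2310 and 705 as Psmb8, and 2955 and 2791 as B2m. Single arrays moved these ranges. Without replicate 1 of the unstimulated wild type group the unstimulated range of Tapbp was 0.14 and that of Psmb8 0.36, and over all such fits that of Psmb8 was 0.04 to 0.36. The stimulated range of B2m was 0.03 to 0.17, the higher value without replicate 3 of the stimulated transgenic group, and that of Tap1 was 0.10 to 0.34, the higher value without replicate 1 of the stimulated wild type group. The unstimulated range of B2m was 0.07 to 0.18.

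The same measure for the change with stimulation, which did not enter the choice of the genes, gave another picture. H2-D1 had a range of stimulation changes of 0.96 in transgenic and 1.32 in wild type cells, and 10 and 7 of the 14 genes with 9 probe sets were at least as wide. H2-K1 had 0.80 in transgenic and 0.87 in wild type cells, and 596 and 570 of 1093 genes were at least as wide. Both heavy chain genes thus lay near the middle of genes with as many probe sets for stimulation, and at or near the extreme for genotype. No test was run on these ranges. Across the 12 arrays, Pearson's r between pairs of H2-D1 probe sets ran from -0.93 to 0.99 over 36 pairs, of which 16 were negative, and between H2-K1 probe sets from -0.47 to 0.98 over 6 pairs, of which 2 were negative. Negative values were not limited to the heavy chains. Of the 6 pairs of Tap1 probe sets 4 were negative, with a range of -0.58 to 0.54. The pair of Tapbp stood at -0.25, while those of B2m and Psmb8 stood at 0.44 and 0.82. Dim probe sets are among these: Tap1 1449803_x_at and 1420274_at averaged 4.03 and 3.62, below every array median, against 6.20 and 9.73 for 1448177_at and 1416016_at. H2-D1 1451934_at, at 3.73, was as dim. The arrays of a group share genotype and state, so these values describe the group pattern.

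The name ending _x_at is the maker's mark for probe sets with probes that can match other transcripts. It was carried by 7 of 9 H2-D1 and 4 of 4 H2-K1 probe sets, by 2 of 15 probe sets of the other members, and by 5.42% of all probe sets. The part of cross-matching probes and of MHC haplotype in the divided readings was not tested, since probe sequences and strains were not among the sources used here.

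**Figure D2:**
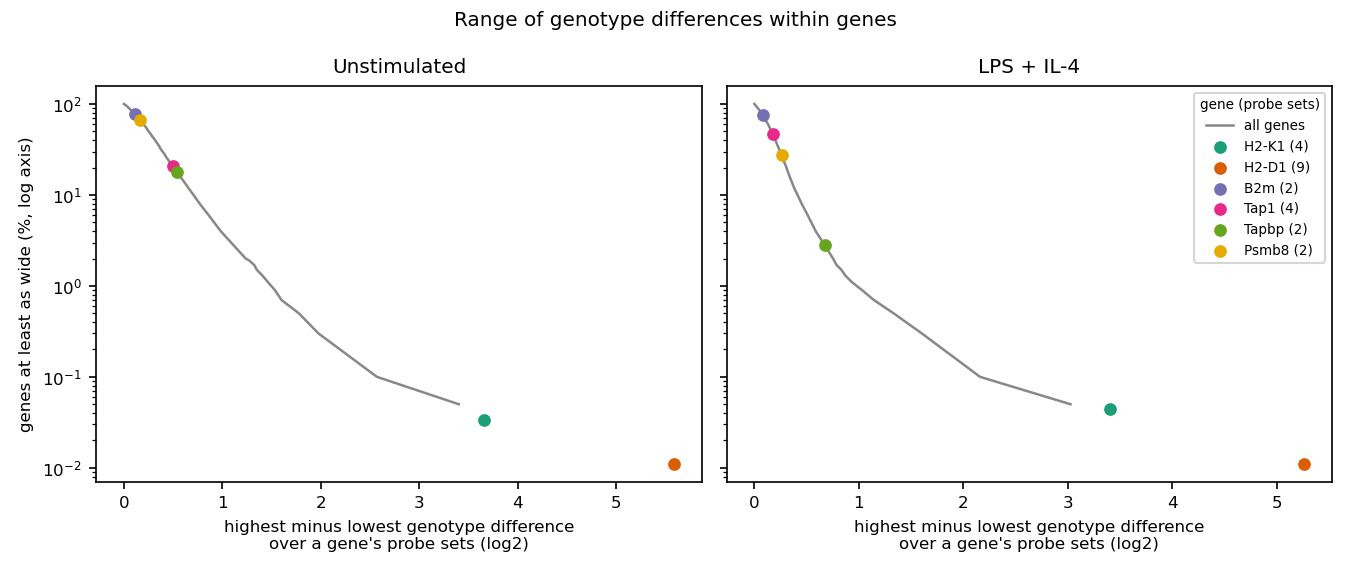
Range of genotype differences over a gene's probe sets (x axis, log2) against the percentage of 9010 genes with a range at least as wide (y axis, log scale), for unstimulated and stimulated cells. H2-D1 at 5.59 and 5.26 and H2-K1 at 3.66 and 3.40 lie at the right end, while B2m, Psmb8, Tap1 and Tapbp lie between 0.08 and 0.67.

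The other 8 genes were tested between genotypes through 15 probe sets. Before stimulation 0 were called higher and 1 lower in transgenic cells (limma, adjusted p under 0.05), where 4.47% of all probe sets were called higher and 4.98% lower. At an unadjusted p under 0.05 there were 1 higher and 2 lower, where 24.1% of all probe sets reached it, and limma with an intensity trend and robust prior called 1 in each direction. After stimulation none was called in either direction by limma, where 0.868% and 0.995% of all probe sets were called; at an unadjusted p under 0.05 there were 5 higher and 0 lower, where 11.1% of all probe sets reached it, and 1 was called higher with limma's intensity trend and robust prior. Differences ran from -0.32 to 0.32 before and from -0.20 to 0.48 after stimulation, with medians of 0.03 and 0.14 beside 0.01 over all probe sets in each state.

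H2-T23 encodes the Qa-1 heavy chain, a class I molecule with few alleles that is read by natural killer cell receptors. Both of its probe sets also carry the symbol H2-T-ps. One, 1449556_at, read 12.22, 11.95 and 12.03 in unstimulated transgenic cells and 12.15, 12.01 and 11.94 in unstimulated wild type cells, overlapping with a difference of 0.03 ± 0.10. After stimulation it read 12.14, 12.08 and 11.89 in transgenic cells, all above 11.83, 11.80 and 11.62 in wild type cells, and the difference of 0.29 ± 0.10 was not called (limma adjusted p = 0.235). The second, 1419658_at, differed by -0.003 and 0.27 (adjusted p = 0.988 and 0.302).

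B2m, the light chain shared by all these molecules, read 13.66, 13.66 and 13.60 by 1449289_a_at in unstimulated transgenic cells and 13.42, 13.47 and 13.50 in unstimulated wild type cells. Although the groups did not overlap, the difference of 0.18 ± 0.07 was not called (limma adjusted p = 0.127). It became a call with the intensity trend and robust prior (adjusted p = 0.0337). Stimulated cells gave 13.56, 13.53 and 13.48 in transgenic and 13.39, 13.43 and 13.30 in wild type arrays, a difference of 0.15 ± 0.07 (adjusted p = 0.432). By 1452428_a_at the differences were 0.06 and 0.07 with overlapping groups.

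Tap1, a subunit of the peptide transporter, held the single called genotype difference among these genes. Probe set 1416016_at read 9.21, 9.32 and 9.18 in unstimulated transgenic cells, against 9.63, 9.52 and 9.51 in unstimulated wild type cells. All transgenic arrays were lower, and the difference was -0.32 ± 0.08, or 1.25-fold lower (limma adjusted p = 0.0225). The call was lost without replicate 1 of the wild type group (adjusted p = 0.0718), without replicate 1 or 3 of the transgenic group (0.0756 and 0.0948) and in a fit on the 6 unstimulated arrays alone (0.0842). After stimulation the groups overlapped, at 10.05, 10.08 and 10.05 in transgenic and 9.96, 10.08 and 10.18 in wild type cells. The other 3 Tap1 probe sets differed by -0.05 to 0.18 before stimulation, and none was called. Tap2, the second subunit, differed by -0.08 ± 0.10 before stimulation and 0.31 ± 0.10 after it (adjusted p = 0.696 and 0.209).

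Tapbp differed by -0.22 ± 0.09 in unstimulated cells through 1421812_at, with 10.94, 11.09 and 10.93 in transgenic and 11.27, 11.10 and 11.25 in wild type arrays (limma adjusted p = 0.173). Its other probe set, 1450378_at, had a larger spread between replicates and read 8.35, 8.84 and 8.35 in unstimulated transgenic cells, against 7.46, 8.46 and 8.66 in unstimulated wild type cells. The low value of 7.46 came from the wild type array with the low 5′ signal, and whether the 2 are linked was not tested.

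Among the immunoproteasome subunits, Psmb9 came closest to a call. It read 11.79, 11.72 and 12.02 in stimulated transgenic cells, all above 11.24, 11.38 and 11.50 in stimulated wild type cells. The difference of 0.47 ± 0.11, or 1.39-fold, lay just outside the threshold (limma adjusted p = 0.0505), and inside it with the replicate number as a block (adjusted p = 0.0461). Over 18 alternatives the adjusted p was 0.0233 to 0.191. Before stimulation its difference was 0.22 ± 0.11 with overlapping groups (adjusted p = 0.237). Psmb8 differed by -0.06 and 0.14 through 1422962_a_at and by 0.10 and -0.12 through 1444619_x_at, and Psmb10 by -0.10 and 0.10; none of these was called.

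The interaction asks whether the genotype difference changed with stimulation. None of the 15 probe sets was called by limma or by limma with an intensity trend and robust prior, where 0.575% of all probe sets were called higher and 1% lower. At an unadjusted p under 0.05 there were 2 higher, or 2 of 15, where 13.3% of all probe sets reached it: Tap1 1416016_at at 0.30 ± 0.11 and Tap2 at 0.39 ± 0.15 (limma adjusted p = 0.237 and 0.258). For the heavy chains, as a description, the interaction was 0.61 ± 0.16 for H2-D1 1451683_x_at, 0.52 ± 0.14 for H2-K1 1425336_x_at and between -0.19 and 0.47 for the other probe sets of 1 symbol. These values moved with scaling: with quantile-normalized values 1451683_x_at gave 1.51, H2-K1 1451931_x_at 1.11 against 0.47 as deposited, H2-D1 1425545_x_at 0.51 against -0.19, and H2-D1 1451784_x_at 0.52 against -0.02.

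**Figure D3:**
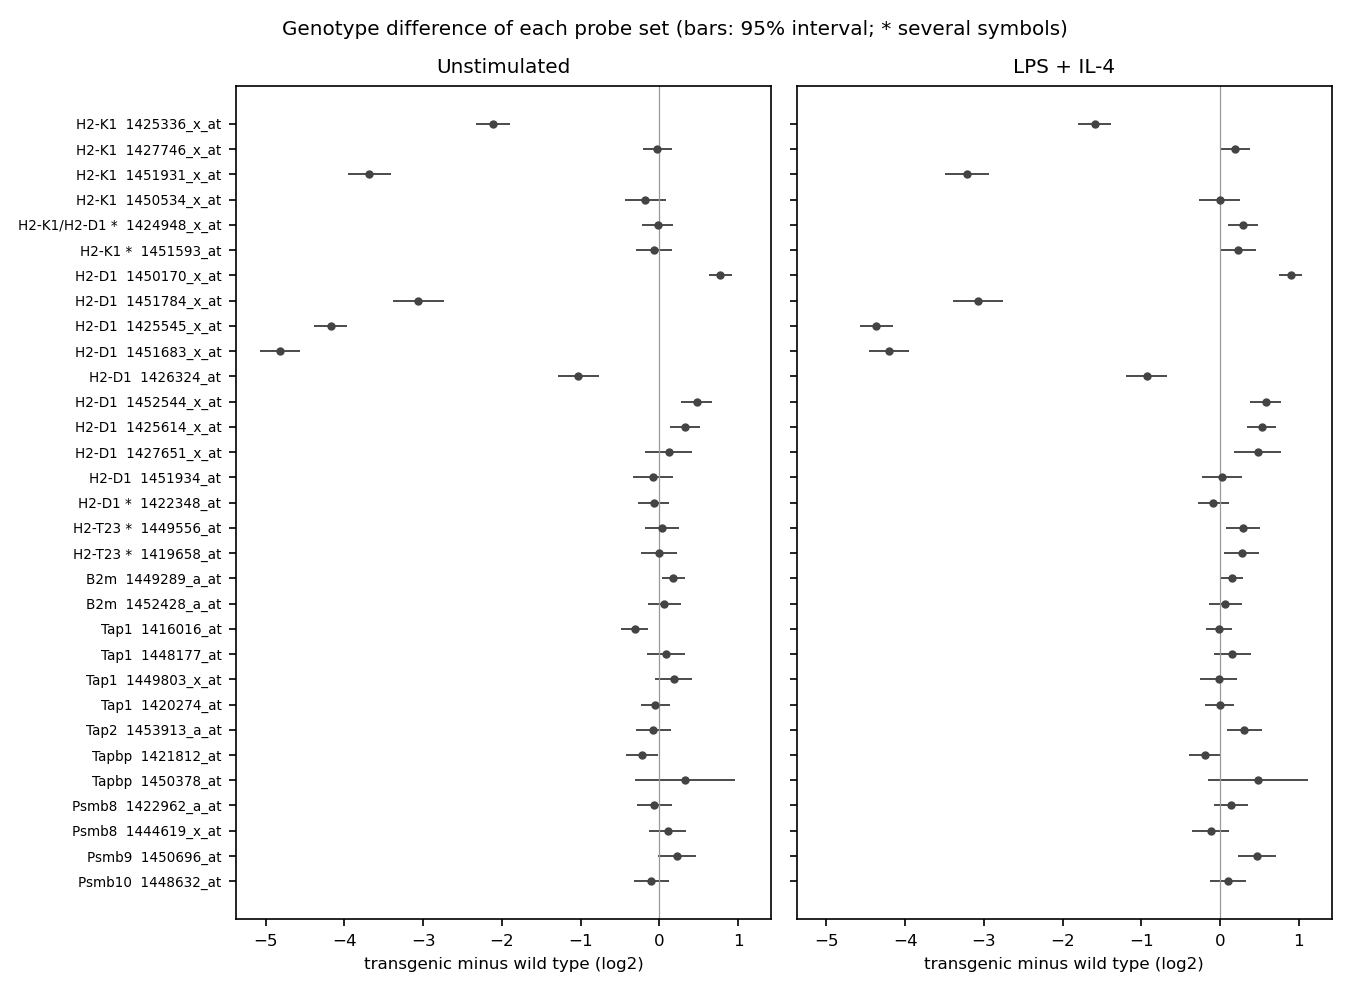
Transgenic minus wild type log2 difference of each of the 31 probe sets (points) with its 95% interval (bars), for unstimulated cells on the left and stimulated cells on the right. The H2-D1 and H2-K1 probe sets spread from -4.82 to 0.90, while those of the other 8 genes lie between -0.32 and 0.48.

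**Figure D4:**
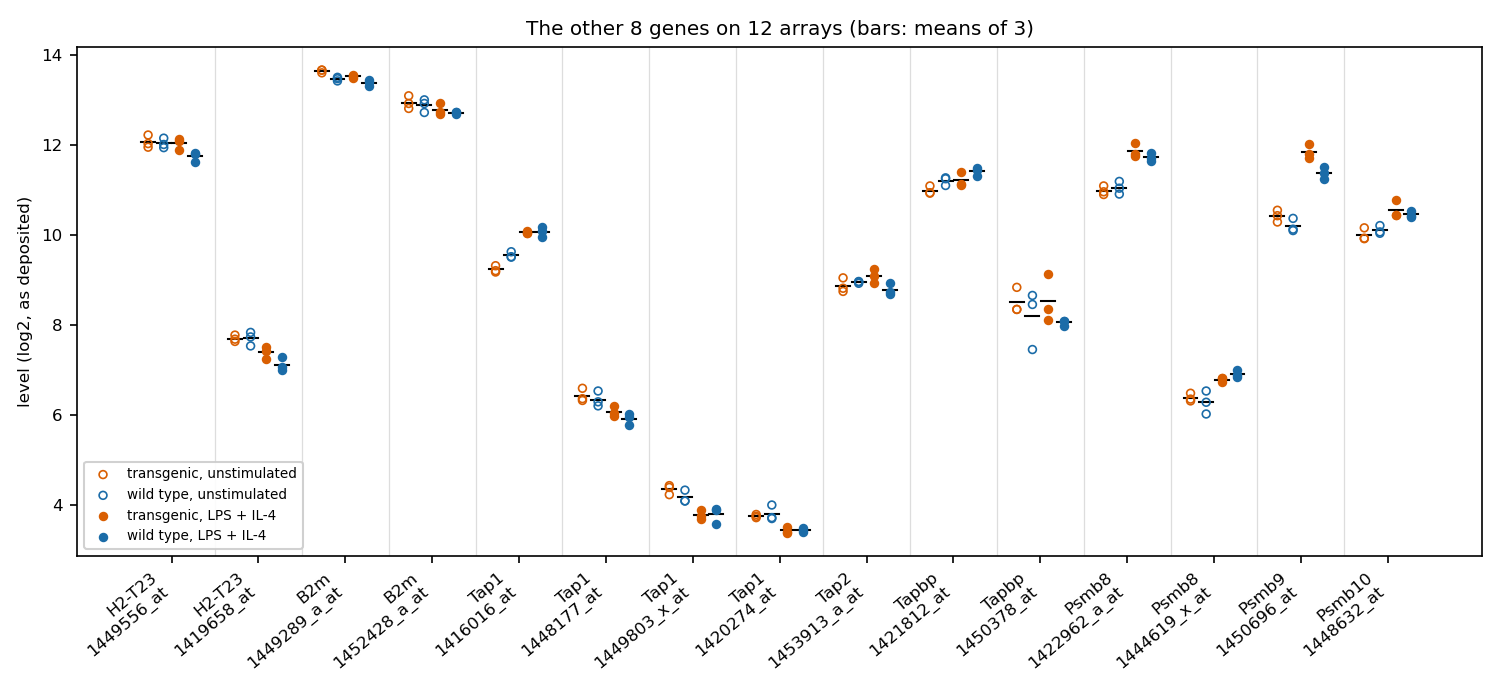
Deposited log2 levels of the 15 probe sets of the other 8 genes on each of 12 arrays, with a bar at the mean of 3 arrays; open points are unstimulated and filled points stimulated cells, transgenic in orange and wild type in blue. Tap1 1416016_at, both Psmb8 probe sets and Psmb9 read higher after stimulation in both genotypes.

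Stimulation with LPS and IL-4, which activates B cells and drives them into division, did not enter the choice of the genes, so all 31 probe sets were tested on values quantile-normalized over the 12 arrays. In transgenic cells 11 were called higher and 6 lower, and in wild type cells 6 higher and 11 lower (limma). Of all probe sets, 30.1% were called higher and 25.1% lower in transgenic cells, and 30.7% and 26.1% in wild type cells. The counts depended on scaling: with the deposited values 6 were higher and 14 lower in transgenic cells and 19 lower in wild type cells, and with arrays centred on their medians 23 were higher and 1 lower in transgenic cells and 18 higher and 2 lower in wild type cells. The share of all probe sets called with the deposited values or with centring was not counted, so these counts describe the members alone. Over all probe sets the median change was 0.04 in both genotypes with quantile normalization and -0.40 in both with the deposited values. With centring it was 0.24 in transgenic and 0.22 in wild type cells. Leaving out replicate 3 of the unstimulated or of the stimulated transgenic group lowered the count of higher probe sets in transgenic cells to 7 and 5.

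Under all 3 scalings and in both genotypes, 4 of the 31 probe sets were called higher after stimulation. They were that of Psmb9, both of Psmb8 and 1416016_at of Tap1. With quantile normalization alone, 30.1% of all probe sets in transgenic and 30.7% in wild type cells were called higher. The share of all probe sets called under all 3 scalings was not counted, so the 4 are described singly. Psmb9 changed by 1.13 ± 0.11 in transgenic cells (limma adjusted p = 1.47e-06) and by 0.94 ± 0.11 in wild type cells (8.32e-06), or 2.19-fold and 1.92-fold. Its deposited values before stimulation were 10.43, 10.55 and 10.29 in transgenic and 10.13, 10.10 and 10.37 in wild type cells, all below every stimulated array of their genotype. Psmb8 rose by 0.57 in transgenic and 0.38 in wild type cells through 1422962_a_at, and by 1.01 and 1.16 through 1444619_x_at.

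Tap1 1416016_at rose by 0.73 ± 0.07 in transgenic cells and by 0.44 ± 0.07 in wild type cells (limma adjusted p = 1.77e-06 and 0.000183). The other 3 Tap1 probe sets were not called in either genotype on the same values, at -0.18 to 0.28 in transgenic and -0.06 to 0.18 in wild type cells, and all 3 were below 0 with the deposited values and above 0 with centring. Psmb10 rose by 0.35 ± 0.10 in transgenic cells under all 3 scalings (adjusted p = 0.0103), though not without replicate 3 of the stimulated transgenic group (adjusted p = 0.0515). In wild type cells it changed by 0.18 ± 0.10 (adjusted p = 0.146), and the other 2 scalings called it higher.

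For the heavy chains and B2m the direction depended on scaling. In wild type cells, 8 of the 9 H2-D1 probe sets had values below 0 with quantile normalization, of which 6 were called. Only 1451683_x_at at -1.20 ± 0.12 and 1425614_x_at at -0.85 ± 0.09 were called lower under all 3 scalings. In transgenic cells 1425614_x_at alone was called lower under all 3, at -0.64 ± 0.09. H2-K1 1427746_x_at, whose genotype groups overlapped before stimulation only, changed by -0.41 in transgenic and -0.66 in wild type cells and was called lower in both. With centred arrays it was called higher in both, by 0.54 and 0.29. B2m changed by -0.08 in transgenic and -0.06 in wild type cells through 1449289_a_at, was not called, and was called higher with centring, by 0.52 and 0.53. Quantile normalization moves values by an amount that depends on their level, so probe sets far apart between genotypes, such as H2-K1 1451931_x_at at 0.39 in transgenic and -0.72 in wild type cells, received different corrections.

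**Figure D5:**
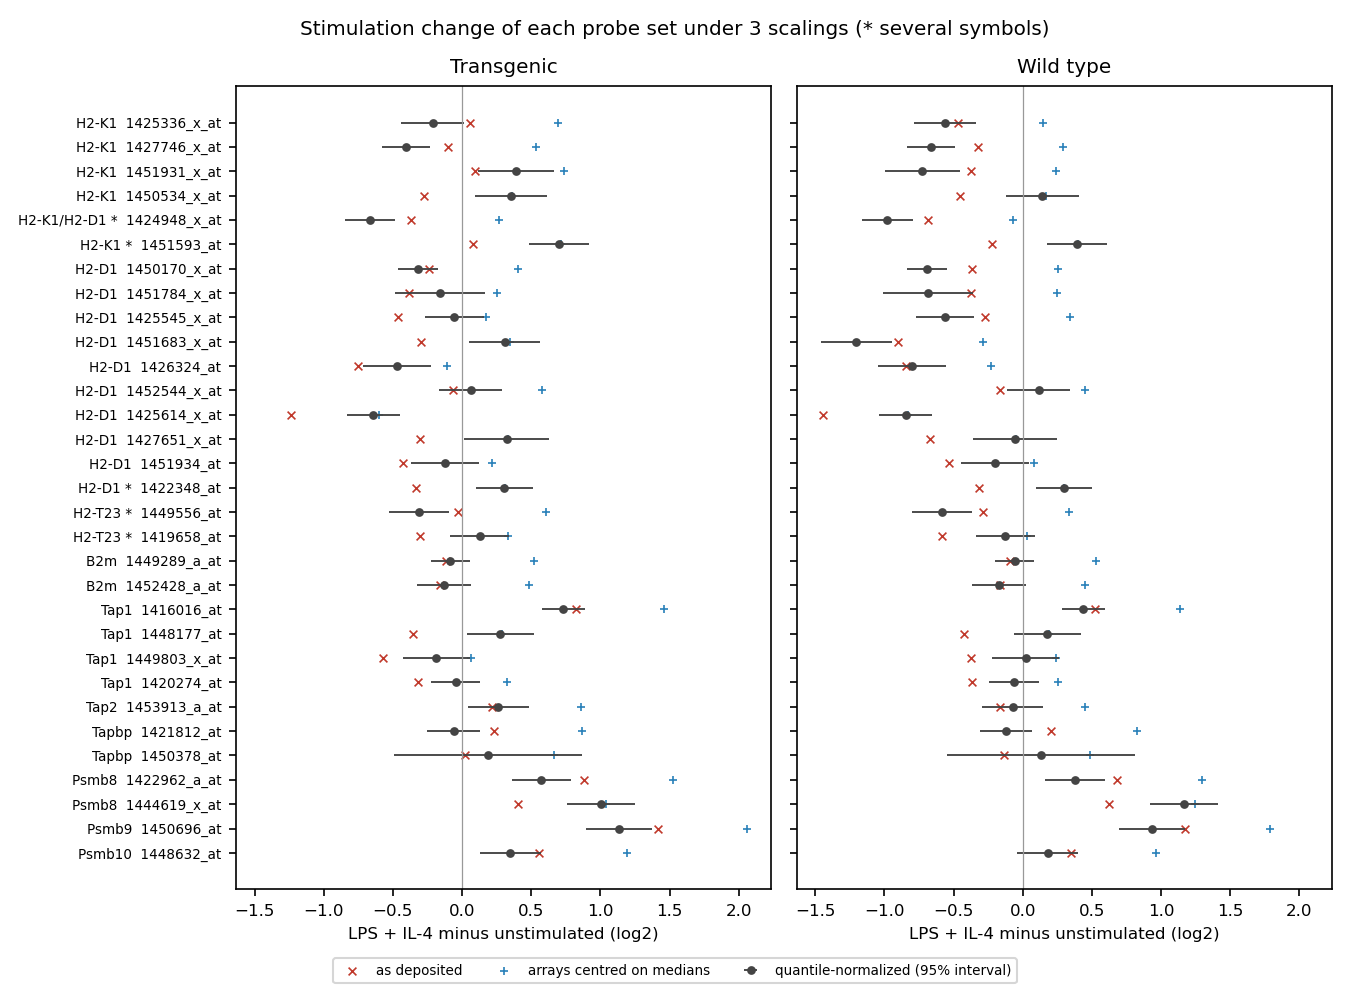
Stimulated minus unstimulated log2 change of each of the 31 probe sets under 3 scalings, transgenic cells on the left and wild type cells on the right; dots with bars are quantile-normalized values with 95% intervals, x marks the deposited values and + the arrays centred on their medians. Tap1 1416016_at, both Psmb8 probe sets and Psmb9 lie above 0 under all 3, whereas most H2-K1 and H2-D1 probe sets and both B2m probe sets lie on both sides of 0.

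Genes that supply peptides to the pathway or help assemble class I molecules were read at 1 probe set per gene, and 9 of 11 were measured. All 9 were called higher after stimulation in both genotypes under each of the 3 scalings. With quantile normalization, 35.2% of genes in transgenic and 36% in wild type cells were called higher. Thop1, a cytosolic peptidase, rose by 1.94 in transgenic and 2.30 in wild type cells, and Erap1, which trims peptides in the endoplasmic reticulum, by 1.39 and 1.38. Tapbpl, a tapasin-related editor of bound peptides, rose by 1.23 in each. Psme3, an activator of the proteasome, rose by 0.83 and 1.32, and in transgenic cells its call was lost in 3 of the 12 fits without 1 array (adjusted p = 0.0504 to 0.0714). Their median change was 0.56 in transgenic and 1.07 in wild type cells. Between genotypes 1 of the 9 was called in unstimulated cells, where 5.45% of all genes were called higher and 4.9% lower. This was Calr, the chaperone calreticulin, at 0.27 ± 0.07 higher in transgenic cells (limma adjusted p = 0.0327). The call was lost with centred arrays (adjusted p = 0.0636) and in 5 of the 12 fits that left out 1 array each (0.059 to 0.119). After stimulation none of the 9 was called, and the differences were between -0.19 and 0.17.

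The subunits that Psmb8, Psmb9 and Psmb10 replace in the immunoproteasome, Psmb5, Psmb6 and Psmb7, rose as well. Psmb5 rose by 1.15 in transgenic and 1.30 in wild type cells, Psmb6 by 1.13 and 1.28, and Psmb7 by 1.32 and 1.15, under all 3 scalings. Between genotypes the 3 differed by -0.06 to 0.21 over both states.

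Of 11 regulators of class I or class II genes, 10 were measured. Between genotypes 1 was called, in unstimulated cells, where 5.45% of all genes were called higher and 4.9% lower. This was Irf2, an interferon regulatory factor. Irf2 read 9.55 in unstimulated transgenic and 10.18 in unstimulated wild type cells, a difference of -0.63 ± 0.11 (limma adjusted p = 0.00381). Its interaction was also called, where 0.588% of genes were called higher and 1.39% lower, at 0.81 ± 0.16 (adjusted p = 0.0228), with 8.48 in stimulated transgenic and 8.29 in stimulated wild type cells; this call, unlike that of the unstimulated difference, was lost in 5 of the 12 fits without 1 array (0.0606 to 0.0726). After stimulation 2 regulators were higher and 4 lower in transgenic cells, where 35.2% and 23.3% of all genes were called. In wild type cells 2 were higher and 6 lower, where 36% and 24% of all genes were called. Irf2 was lower, at -1.04 in transgenic and -1.87 in wild type cells, as was Rfx5, a subunit of the factor that binds the X box of MHC promoters, at -1.06 and -1.16, both under all 3 scalings. Ciita, the class II transactivator, was lower at -0.65 and -0.76, and Irf1 at -0.86 in wild type cells; with centred arrays Ciita was lost in transgenic cells (adjusted p = 0.301) and Irf1 in wild type cells (0.183). Nlrc5, the class I transactivator, rose by 0.64 ± 0.17 in transgenic and 0.45 ± 0.17 in wild type cells (limma adjusted p = 0.00608 and 0.0385). It was called under all 3 scalings in transgenic cells, but missed the threshold with the deposited values in wild type cells (0.0506). Its interaction was not called (0.815). The split over the list turned with scaling. In transgenic cells it was 1 higher and 5 lower with the deposited values and 4 higher and 2 lower with centring. The share of all genes called was not counted under these scalings.

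Of 23 other class I and class I-like genes, 12 were measured. In unstimulated cells 3 were higher and 1 lower in transgenic cells, and 5.45% and 4.9% of all genes were called higher and lower. Hfe, an iron-regulating class I-like protein, read 7.36 in transgenic and 5.81 in wild type cells, 1.55 ± 0.12 higher (limma adjusted p = 5.91e-06), and was near level after stimulation at 5.42 and 5.32, with a called interaction of -1.45 ± 0.17 (adjusted p = 0.00102). Cd1d1, which presents lipids, was 0.82 ± 0.12 higher, H2-Q10 0.66 ± 0.10 higher and H2-M3, which presents formylated peptides, lower, with a difference of -0.46 ± 0.08. H2-Q10 was dim, at 5.58 in transgenic and 4.92 in wild type cells, below every unstimulated array median. In stimulated cells 1 of the 12 was called, where 1.24% of all genes were called higher and 1.1% lower. It was H2-T24, at 7.97 in transgenic and 6.97 in wild type cells, 1.00 ± 0.17 higher (limma adjusted p = 0.00717). After stimulation 3 were higher and 5 lower in transgenic cells, where 35.2% and 23.3% of all genes were called. In wild type cells 3 were higher and 4 lower, where 36% and 24% of all genes were called. This split also turned with scaling. With the deposited values it was 0 higher and 10 lower in transgenic and 0 and 9 in wild type cells. With centring it was 4 and 4 in each. Shares of all genes were not counted under these scalings. Cd1d1 was lower, at -3.16 in transgenic and -2.56 in wild type cells, as was Fcgrt, the neonatal Fc receptor, at -1.12 and -1.42, both under all 3 scalings.

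Unstimulated transgenic arrays also read higher for markers of other cells, where 5.45% of all genes were called higher and 4.9% lower. Of 9 granulocyte markers 9 were called higher in transgenic cells, with summed linear levels of 10119 to 14573 in unstimulated transgenic and 770 to 840 in unstimulated wild type arrays, and 381 to 475 and 272 to 292 after stimulation. For macrophages 9 of 10 were higher, with sums of 8269 to 12675 and 3974 to 5131, and 1024 to 1603 and 612 to 749 after stimulation. Among erythroid markers 5 of 6 were higher, at 1427 to 2043 and 429 to 682, and the sums after stimulation were 146 to 157 and 152 to 161. Fewer were higher among T and NK cell markers (3 of 9), platelet markers (1 of 5) and plasma cell markers (4 of 6). B cell markers before stimulation summed to 37186 to 37524 and 33381 to 40409, with 1 higher and 1 lower of 8. In stimulated cells 1.24% of all genes were called higher in transgenic cells. The markers called higher there were 3 of 9 for granulocytes, 3 of 10 for macrophages and 3 of 6 for plasma cells. They were 1 of 5 for platelets, 1 of 8 for B cells, and 0 for erythroid and for T and NK cells. No marker can be at 0 on this log2 scale. The part of these cells in the genotype differences of Hfe, Irf2, Tap1 and the other members was not tested, and in RNA of a cell mixture fewer cells of a type and less RNA per cell cannot be told apart.

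Genes that lie between Tapbp and H2-T23 on chromosome 17 were counted as neighbours of the members. Of 102 measured, 12 were called higher and 5 lower in unstimulated transgenic cells, where 5.45% and 4.9% of all genes were called. In stimulated ones 7 were called higher and 3 lower, where 1.24% and 1.1% of all genes were. Lst1, a leukocyte gene, was 1.21 ± 0.16 higher before and 0.75 ± 0.16 higher after stimulation, and Aif1, a macrophage gene, 0.87 ± 0.17 higher before. H2-Eb2, a class II gene, was lower in both states, at 8.37 in transgenic and 9.23 in wild type cells before and 6.89 and 7.74 after stimulation. Ier3 was 0.84 ± 0.10 higher before stimulation, and H2-Ea, a class II chain, was 0.74 ± 0.17 higher after it. Aif1 and Ier3 were dim in unstimulated wild type cells, at 5.58 and 5.25, below every unstimulated array median. Of the stimulated calls, that of Lst1 was lost in 5 of the 12 fits without 1 array (limma adjusted p = 0.0858 to 0.127) and that of H2-Ea in 9 (0.0621 to 0.144). On stimulation 32 neighbours were called higher and 33 lower in transgenic cells, and 33 and 34 in wild type cells, of 102, where 35.2% and 23.3% of all genes were called in transgenic and 36% and 24% in wild type cells. In the interaction 1 neighbour, Tnf, was called, at -0.56 ± 0.12 (limma adjusted p = 0.0417), which was lost in 10 of the 12 fits without 1 array (0.0517 to 0.11).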

How the data were processed

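Each of 12 RNA samples had its own Affymetrix mouse array. The deposited values are log2 probe set levels that the authors made by RMA, using affy, as listed without versions per the submitters' processing notes. Whether 1 normalization run held all arrays is not stated. The 64 array controls were left out. Symbols came from the platform annotation, in which 34945 probe sets had 1 symbol, 932 several and 9160 none.

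limma 3.58.1 in R 4.3.3 was fitted with 1 coefficient per group over all arrays and an untrended prior, giving 8 residual degrees of freedom and 4.71 from the prior. Benjamini-Hochberg adjustment covered 45037 probe sets, and calls are at an adjusted p below 0.05. Tests were two-sided. Genotype and interaction used the deposited values, stimulation the values after quantile normalization. Alternatives were other scalings, a filter on dim probe sets, a replicate block, a trended robust prior, the compared arrays alone and leaving out each array. The lists (peptide supply and assembly, standard proteasome subunits, regulators, other class I molecules, neighbours, cell markers) used the brightest probe set of each of 18193 genes, and in each contrast at most 4 called members were named, by size of change. Listed genes lacking a single-symbol probe set were not analysed here. The members, lists and settings were chosen with earlier results of these data known.

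The labels number the replicates 1 to 3 in each group and name no pairing. Deviations from the group means of same-numbered replicates correlated at 0.33, 0.101 and 0.178 between the stimulated genotypes. Between the states of wild type cells they correlated at 0.318, 0.175 and 0.19. The alternative with a block therefore treated same-numbered replicates as pairs, and did so in every comparison. On simulated data for the unstimulated genotype comparison (45037 probe sets, 50 changed per size), the fit recovered 62% of changes of 0.5, 100% of 1, 96% of 2 and 100% of 4, with 11 false calls.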

Additional observations from a re-analysis of the deposited data

Results flagged for a closer look

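Among the named genes of the wider lists, cell markers aside, 3 outside the 10 members had a called interaction. They were 1 of 12 other class I genes, 1 of 10 regulators and 1 of 102 neighbours. Of all genes, 0.588% were called higher and 1.39% lower. Among cell markers 9 of 9 for granulocytes, 5 of 6 for erythroid cells and 4 of 10 for macrophages were lower, and 1 macrophage marker was higher. For platelets 1 of 5 was higher, and for plasma cells 1 of 6 lower. The 3 calls were not equally stable. Hfe had an interaction of -1.45, with 7.36 in transgenic and 5.81 in wild type cells before stimulation and 5.42 and 5.32 after it, and its call was kept in each of the 12 fits without 1 array. Irf2 had an interaction of 0.81, with 9.55 in transgenic and 10.18 in wild type cells before stimulation and 8.48 and 8.29 after it. Tnf had one of -0.56, with 7.26 and 6.95 before and 7.60 and 7.85 after it. The call of Irf2 was lost in 5 of the 12 fits and that of Tnf in 10. That of Tnf was also lost with quantile-normalized values, centred arrays and the trended robust prior (limma adjusted p = 0.0583 to 0.0615). Groups of 3 arrays are too small for a check of single arrays that stand apart.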

How the results depend on the processing

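Each result was recomputed under other scalings, a filter on dim probe sets, a replicate block, a trended robust prior, the compared arrays alone and without each of the 12 arrays. The count of the 15 probe sets lower in unstimulated transgenic cells was 1, fell to 0 with the compared arrays alone, and was 0 to 1 when single arrays were left out; the count of those higher was 1 with the trended robust prior. In stimulated cells the count of those higher was 1 with dim probe sets removed, with the replicate block and with the trended robust prior, and 0 to 1 without single arrays. The interaction kept 0 calls under every alternative run. Adjusted p over the alternatives was 0.0143 to 0.0948 for Tap1 1416016_at in unstimulated cells and 0.0233 to 0.191 for Psmb9 in stimulated cells. With quantile-normalized values the range of genotype differences was 5.92 and 4.98 for H2-D1 and 3.96 and 3.11 for H2-K1 in unstimulated and stimulated cells. Counts on stimulation in transgenic cells were 6 higher and 14 lower with the deposited values and 23 and 1 with centred arrays, and without single arrays 5 to 13 higher and 5 to 7 lower. In wild type cells there were 19 lower with the deposited values, and 18 higher and 2 lower with centred arrays. The share of all probe sets called on stimulation was not counted for these other scalings.

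Directions turned on stimulation with the scaling, in 15 cases in transgenic and 17 in wild type cells. A case is another scaling with the opposite sign to the main fit, where at least 1 of these fits was called. Tapbp 1421812_at in transgenic cells counts under both other scalings. Over the 3 scalings, 10 probe sets in transgenic and 7 in wild type cells were called in opposite directions. A further 10 and 14 differed in sign without opposed calls. With centred arrays, H2-K1 1425336_x_at gave 0.70 in transgenic and 0.15 in wild type cells, 1427746_x_at 0.54 and 0.29, H2-D1 1450170_x_at 0.40 and 0.25, H2-T23 1449556_at 0.61 and 0.33, B2m 0.52 and 0.53 (1449289_a_at) and 0.48 and 0.45 (1452428_a_at), Tap1 1420274_at 0.32 and 0.25, and Tapbp 1421812_at 0.87 and 0.82. In transgenic cells alone 1424948_x_at turned to 0.27. In wild type cells alone H2-K1 1451931_x_at turned to 0.24, H2-D1 1451784_x_at to 0.25, 1425545_x_at to 0.34 and Tap2 1453913_a_at to 0.45. With the deposited values, H2-K1 1450534_x_at gave -0.28 in transgenic and -0.45 in wild type cells, 1422348_at -0.33 and -0.32, and Tap1 1448177_at -0.35 and -0.43. In transgenic cells alone H2-D1 1451683_x_at turned to -0.29, H2-T23 1419658_at to -0.31 and Tapbp 1421812_at to 0.23, and in wild type cells alone 1451593_at to -0.22 and Tap1 1449803_x_at to -0.37. The median of all probe sets moves with these scalings, by construction.

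Same-numbered replicates correlated at 0.0778, 0.0701 and 0.297 between the unstimulated genotypes. Between the states of transgenic cells they correlated at 0.0689, -0.16 and 0.115. Neither comparison gave clear grounds for pairing by number. The replicate block nonetheless used the numbers in every comparison, including these. With the replicate block, 2320 probe sets were called higher and 2646 lower in unstimulated and 473 and 527 in stimulated transgenic cells, against 2013, 2243, 391 and 448 without it. The block lost the call of H2-D1 1451683_x_at on stimulation in transgenic cells (limma adjusted p = 0.0584) and gained that of Psmb9 between stimulated genotypes (0.0461), and changed no other call among the members. Among the named genes of the wider lists, a called direction never turned under the alternatives run. Outside the fits without 1 array, calls were lost for Calr (limma adjusted p = 0.0636 to 0.105), H2-Ea (0.0778 and 0.0969) and the Tnf interaction (0.0583 to 0.0615). With centred arrays those of Irf1 and Ciita were lost, and with the deposited values that of Nlrc5 in wild type cells (0.0506). Groups of 3 arrays limit what can be seen of small changes.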

Other observations

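The genes whose levels ran most like those of 3 members over the 12 quantile-normalized arrays were found by Pearson's r, as a description over arrays that share genotype and state. For H2-K1 1425336_x_at they were Mndal (r = 0.990), Tlr1 (0.964) and Slc15a2 (0.962). Mndal 1452231_x_at, an interferon-inducible gene, averaged 5.94 in unstimulated transgenic and 12.79 in unstimulated wild type cells, and 4.81 and 11.46 after stimulation. Slc15a2, a peptide transporter, averaged 5.38 in unstimulated transgenic and 10.27 in unstimulated wild type cells. For H2-D1 1450170_x_at, which was higher in transgenic cells, they were Ctse (0.969), Erdr1 (0.959) and Abhd1 (0.941). Ctse, the endosomal protease cathepsin E, averaged 12.41 in unstimulated transgenic and 8.57 in unstimulated wild type cells, and 11.27 and 6.15 after stimulation. For Tap1 1416016_at they were Alg5 (0.985), Parp9 (0.982) and Dcaf13 (0.981), and Parp9 averaged 8.41 in unstimulated transgenic and 8.85 in unstimulated wild type cells, and 9.89 in both after stimulation.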
